A study of Mus musculus with 12 samples.

Results

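The unfolded protein response and the integrated stress response were followed here through 10 genes, which are Atf4, Ddit3, Hspa5, Xbp1, Atf6, Chac1, Trib3, Asns, Herpud1 and Creb3l3. They were chosen by name, as the rows of the liver count table whose mapped symbol is in this list, and make up 10 of 55357 genes in the table. The list matched 11 rows, since the symbol Ddit3 stands on a second Ensembl gene, which had 0 counts in every library and was not used. All 10 genes passed the filter on low counts, which kept 17358 genes in all.

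The study profiled liver mRNA of male C57BL/6J mice to compare loss of the nuclear receptor PPARα in hepatocytes with a diet that causes steatohepatitis. All mice carried floxed Ppara alleles (PPARa fl/fl). The knockout (KO) mice also carried a Cre transgene under the albumin promoter (AlbuminCre Tg/+), and the mice called wild type (WT) did not. Mice were 7 weeks old at the start and 13 weeks old at the end of 6 weeks on chow or on CDAHFD, a high-fat diet that lacks choline and is defined in its L-amino acids. WT chow has 4 libraries, WT CDAHFD 3, KO chow 2 and KO CDAHFD 3. The albumin promoter is active in hepatocytes, so that the other liver cells of a KO mouse keep Ppara. The study's methods describe RNA from the livers of separate mice, the sample labels do not tie libraries to mice, and the p-values measure the spread between these libraries.

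In the unfolded protein response, misfolded protein in the endoplasmic reticulum (ER) activates 3 membrane sensors. IRE1 splices Xbp1 mRNA, ATF6 is cut to free a transcription factor, and PERK phosphorylates the initiation factor eIF2. The last step is shared with the other eIF2 kinases, which respond to amino acid shortage, haem shortage or viral RNA, and this shared branch is the integrated stress response. It lowers protein synthesis in general while translation of Atf4 mRNA goes up, and ATF4 then turns on Ddit3, Trib3, Asns and Chac1. Because ATF4 is raised by translation, ATF6 by cleavage and XBP1 by splicing, the mRNA count of these 3 genes does not report the activity of their proteins, and a gene count does not separate spliced from unspliced Xbp1.

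The genes whose promoters hold a binding motif of these pathways are shown here because they include genes that moved in opposite directions in the liver. RefSeq promoters on GRCm38.p6, from 250 bases before to 50 bases after a start site, were at hand for 9 of the 10 genes, with no entry for Atf6. Motifs were searched on both strands as TGATGNAAN (the C/EBP-ATF response element, CARE, bound by ATF4), CCAAT followed after 9 bases by CCACG (the ER stress response element, ERSE), TGACGTGG (the unfolded protein response element, UPRE), TGACGTCA (the cyclic AMP response element, CRE) and AGGTCA repeated after 1 base (the direct repeat bound by PPAR and RXR). UPRE and CRE share their first 6 letters, and their shares of promoters were counted separately. CARE was found in 4 genes, in the promoters of Asns, Trib3, Chac1 and Herpud1, and in 3.95% of all 32851 promoters. ERSE in the form given above was found in the Hspa5 promoter and in 0.119% of all promoters. Other forms of ER stress element were not searched, so the other promoters, that of Herpud1 included, may hold one. The remaining motifs of the search were found in none of the 9 genes, against 0.676% of all promoters for UPRE, 1.79% for CRE and 0.0396% for the PPAR repeat.  Capitals mark the CARE match in the first 4 sequences and the ERSE match in the last, 5′ to 3′ on the strand of the gene.
Asns, chr6:7693160-7693459, minus strand: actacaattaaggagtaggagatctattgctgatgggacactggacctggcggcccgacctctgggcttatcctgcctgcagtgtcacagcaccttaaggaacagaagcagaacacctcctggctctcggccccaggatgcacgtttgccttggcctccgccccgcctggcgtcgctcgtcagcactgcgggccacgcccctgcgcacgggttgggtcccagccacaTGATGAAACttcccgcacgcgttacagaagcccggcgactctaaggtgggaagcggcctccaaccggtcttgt
Trib3, chr2:152344011-152344310, minus strand: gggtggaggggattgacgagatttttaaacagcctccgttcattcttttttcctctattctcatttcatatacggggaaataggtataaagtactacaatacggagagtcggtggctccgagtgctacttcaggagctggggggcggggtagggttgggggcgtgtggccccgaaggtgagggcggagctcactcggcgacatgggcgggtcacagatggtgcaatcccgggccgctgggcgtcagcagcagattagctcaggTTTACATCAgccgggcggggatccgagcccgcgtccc
Chac1, chr2:119350992-119351291, plus strand: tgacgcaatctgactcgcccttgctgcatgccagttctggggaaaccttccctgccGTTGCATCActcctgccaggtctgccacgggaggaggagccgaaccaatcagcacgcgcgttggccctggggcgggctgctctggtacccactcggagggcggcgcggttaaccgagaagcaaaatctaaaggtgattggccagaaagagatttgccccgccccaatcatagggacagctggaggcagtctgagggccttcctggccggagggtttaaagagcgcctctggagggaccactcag
Herpud1, chr8:94386179-94386478, plus strand: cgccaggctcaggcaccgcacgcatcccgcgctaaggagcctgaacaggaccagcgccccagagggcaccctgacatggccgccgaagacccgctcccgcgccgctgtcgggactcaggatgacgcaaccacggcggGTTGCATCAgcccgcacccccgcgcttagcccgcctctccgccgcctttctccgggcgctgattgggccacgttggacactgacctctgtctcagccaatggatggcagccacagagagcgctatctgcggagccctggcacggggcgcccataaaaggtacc
Hspa5, chr2:34771840-34772139, plus strand: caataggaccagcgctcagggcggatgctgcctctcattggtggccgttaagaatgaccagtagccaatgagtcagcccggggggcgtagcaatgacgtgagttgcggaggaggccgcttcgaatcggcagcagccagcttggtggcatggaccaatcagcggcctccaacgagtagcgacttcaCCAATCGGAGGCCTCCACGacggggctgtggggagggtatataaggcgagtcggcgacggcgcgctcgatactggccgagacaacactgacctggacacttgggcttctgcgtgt
The CARE match began 23 bases before the start site in Asns, 194 before in Chac1, 113 before in Herpud1 and at base 14 after it in Trib3, and the ERSE match of Hspa5 began 65 bases before it. A match is a string of letters and does not show that a factor was bound in these livers.

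Ppara, the targeted gene, was measured first. It had 120.1, 96.2, 238 and 226 CPM (counts divided by the library size in units of 1000000 counts, with library sizes scaled by the TMM method) in the WT chow libraries 1 to 4, and 59.5, 75.5 and 73.5 in WT CDAHFD. KO chow had 14.4 and 38.7 CPM and KO CDAHFD 36.3, 20.7 and 51.9. Against WT chow, KO chow was lower (log2 fold change -2.68 ± 0.50 (SE), adjusted p = 0.00111), as were KO CDAHFD (-2.23 ± 0.42, adjusted p = 6.41e-04) and also WT CDAHFD (-1.29 ± 0.40, adjusted p = 0.0163). Adjusted p are Benjamini-Hochberg values over all genes tested, from edgeR's quasi-likelihood test. Between KO CDAHFD and WT CDAHFD it differed by -0.94 ± 0.42 and did not pass the test (adjusted p = 0.547), although the libraries of the groups did not overlap. The count covers the whole gene and does not single out the floxed part.

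Total counts per library ran from 29906785 to 43551003. Hepatocyte markers were abundant in all 12 libraries, and the 8 of them summed to 93266 to 110387 CPM in WT chow, 48518 to 59285 in WT CDAHFD, 82477 to 93470.1 in the KO chow libraries and 47168 to 63371 in KO CDAHFD. Of the 8, with Alb the most and Hnf4a the least abundant, 4 were lower than WT chow in KO chow, while KO CDAHFD had 7 lower and WT CDAHFD had 8. Of all genes tested, 17.0%, 25.4% and 25.0% were lower in the same order of groups. The summed levels of macrophage markers (324 to 602 CPM in WT chow, 1183 to 2066 elsewhere), stellate cell markers (232 to 332, 1211 to 2014 elsewhere), cholangiocyte markers (69.8 to 105, 187 to 915 elsewhere) and neutrophil markers (2.74 to 13.3, 20.2 to 30.8 elsewhere) were higher in every library of the 3 other groups than in every WT chow library. The neutrophil markers Ly6g and Mpo were at 0 counts in all WT chow libraries. The summed level of T, B and plasma cell markers was 333.7 to 387 CPM in KO chow and 193 to 289 in the other groups. Most of this sum was Sdc1, the most abundant of these markers (mean 236.8 CPM). With equal weight per gene, the mean log2 level of 8 of these markers was above all WT chow libraries in every other library. Relative to WT chow, the lowest of those libraries was at 0.42 and the highest WT chow library at 0.17. Of the 8, KO chow had 4 higher, KO CDAHFD 2 and WT CDAHFD 1, with Sdc1 lower in WT CDAHFD. Of all genes tested, 22.0%, 26.9% and 26.1% were higher in the same order of groups, and the counts of 2 and 1 lie near or below these shares. The summed level of endothelial markers was 210.2 to 328 CPM in WT chow and 136 to 287 in the others. In whole liver RNA, fewer cells of a type and less RNA per cell cannot be told apart, and the part of cell composition in the differences below was not tested.

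Libraries of the same group also differed in clock genes. A clock gene score was taken as the mean log2 CPM of 5 genes high near lights-on minus the mean of 8 genes high near lights-off. It was 3.31 and 2.75 in WT chow libraries 1 and 2, but -2.65 and -2.66 in libraries 3 and 4. It was 2.99 and -0.97 in the KO chow libraries, 1.45, 1.38 and -3.45 in the KO CDAHFD libraries, and between 1.09 and 1.92 in the WT CDAHFD libraries. The hour of tissue collection is not given in the sources used here. Ppara was higher in WT chow libraries 3 and 4 (238 and 226 CPM) than in libraries 1 and 2 (120.1 and 96.2). Within each KO group the library of negative score had the highest Ppara, at 38.7 and 51.9 CPM. The fold changes of Ppara above are not adjusted for the score, and the part of the score in them was not tested. For the 10 genes and the lists, results with the score as a covariate or from the 8 libraries with a score above 0 are given beside the main values they bear on. These 8 libraries were not matched in score, which was 3.31 and 2.75 in WT chow but 1.09 to 1.92 in WT CDAHFD and 1.45 and 1.38 in KO CDAHFD. KO chow is 1 library among them, so only sizes are given for it.

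Per kilobase of exon in WT chow, the order from high to low was Hspa5 (313 ± 180.5 CPM per kb, SD), Herpud1 (179 ± 100.4), Creb3l3 (164 ± 23.1), Xbp1 (118 ± 34.2), Atf4 (61.4 ± 3.36), Atf6 (12.7 ± 1.33), Trib3 (5.56 ± 2.50), Ddit3 (4.28 ± 0.59), Chac1 (2.98 ± 1.39) and Asns (1.42 ± 0.77), with n = 4. The libraries of neighbouring genes in this order overlapped from Hspa5 to Xbp1 and from Trib3 to Asns, so that the order within each of these runs is not set. Xbp1, Atf4, Atf6 and Trib3 were apart from each other in every WT chow library.

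Ddit3, Trib3 and Asns were higher than in WT chow in each of the 3 other groups, Creb3l3 was lower in each, and Atf4 and Chac1 passed the test in none of the comparisons. Of the 10 genes, 4 differed between KO chow and WT chow (39.0% of all genes tested did), 5 between WT CDAHFD and WT chow (51.1%) and 7 between KO CDAHFD and WT chow (52.4%). At an unadjusted p under 0.05 the counts were 5, 6 and 7 of 10, against 47.6%, 56.6% and 57.9% of all genes. The libraries did not overlap with WT chow for 6, 7 and 7 of the 10, against 50.2%, 55.4% and 51.5% of all genes. These shares lie near those of all genes. In each of these comparisons 3 of the 10 genes were higher (22.0%, 26.1% and 26.9% of all genes were) and 1, 2 and 4 were lower (17.0%, 25.0% and 25.4% of all genes were). The 3 comparisons use the same 4 WT chow libraries, so that their values are set side by side and not counted as separate evidence. The plot of CPM by library shows the values of all 10 genes.

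**Figure D1:**
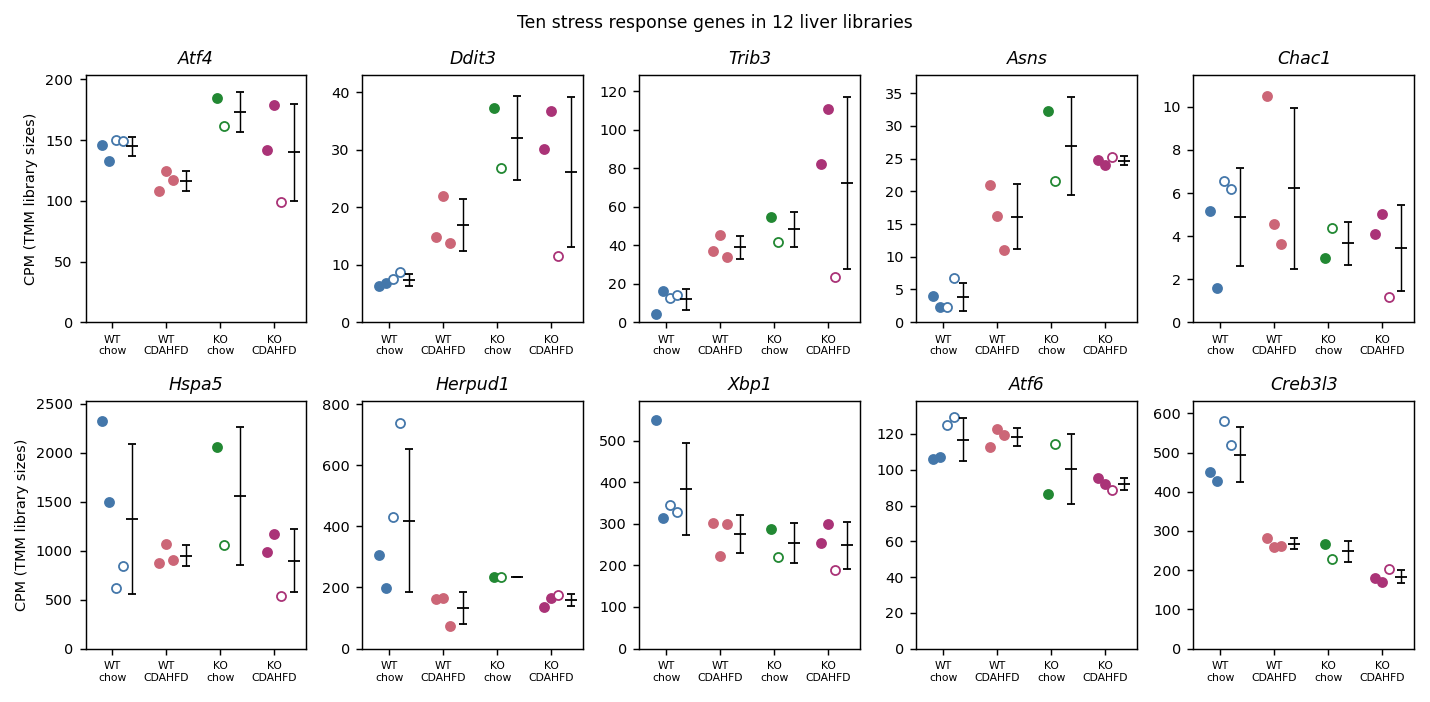
CPM (linear axis from 0) of the 10 genes in each liver library, by group, with 1 point per library. Points are filled where the clock gene score is above 0 and open where it is below, and the bar beside the points is the mean ± SD of the group (n = 4, 3, 2 and 3). Asns, Ddit3 and Trib3 lie above WT chow and Creb3l3 lies below it in every library of the other groups, while Hspa5 spreads from 622 to 2322 CPM within WT chow.

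Asns encodes asparagine synthetase, an ATF4 target that responds to amino acid shortage (chromosome 6, 7675169 to 7693254, minus strand, GRCm38). It was at 4.04, 2.36, 2.33 and 6.79 CPM in WT chow and 20.96, 16.3 and 11.1 in WT CDAHFD. KO chow had 32.2 and 21.6 CPM, and KO CDAHFD 24.8, 24.0 and 25.2. Every library of the other groups was above every WT chow library, and both KO groups were above WT CDAHFD. Asns rose 7.04-fold in KO chow (log2 fold change 2.82 ± 0.35, adjusted p = 4.79e-05), 4.22-fold in WT CDAHFD (2.08 ± 0.33, adjusted p = 1.80e-04) and 6.47-fold in KO CDAHFD (2.69 ± 0.33, adjusted p = 2.08e-05). The difference between KO CDAHFD and WT CDAHFD was 0.62 with a 95% interval from -0.10 to 1.33 and did not pass the test (adjusted p = 0.649).

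Ddit3 encodes CHOP, the transcription factor downstream of ATF4 (chromosome 10, 127290774 to 127296288, plus strand). Its values were 6.37, 6.83, 7.44 and 8.71 CPM in WT chow, 14.8, 22.02 and 13.8 in WT CDAHFD, 37.2 and 26.8 in KO chow, and 30.2, 36.7 and 11.6 in KO CDAHFD. KO CDAHFD library 3, which also has the lowest clock gene score, lay below the other libraries of its group and below all of WT CDAHFD, but above WT chow. Ddit3 rose 4.37-fold in KO chow (2.13 ± 0.34, adjusted p = 3.26e-04), 2.31-fold in WT CDAHFD (1.21 ± 0.31, adjusted p = 0.00613) and 3.57-fold in KO CDAHFD (1.84 ± 0.31, adjusted p = 3.20e-04). Without KO CDAHFD library 3 the last value was 2.19. The exons of Ddit3 share 68 bases (3.97%) with Mars on the opposite strand, whose counts were 328% of those of Ddit3. The libraries do not keep the strand, so reads in these bases could come from either gene.

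Trib3 encodes a pseudokinase that binds AKT and ATF4 (chromosome 2, 152337422 to 152344032, minus strand). It had 4.15, 16.3, 12.7 and 14.0 CPM in WT chow and 37.1, 45.5 and 34.1 in WT CDAHFD. The KO chow libraries had 54.8 and 41.8 CPM, and those of KO CDAHFD 82.3, 111 and 23.5. The groups did not overlap with WT chow, while KO CDAHFD held both the highest values and, in library 3, the lowest outside WT chow. Trib3 rose 4.08-fold in KO chow (2.03 ± 0.50, adjusted p = 0.00618), 3.29-fold in WT CDAHFD (1.72 ± 0.46, adjusted p = 0.00725) and 6.11-fold in KO CDAHFD (2.61 ± 0.46, adjusted p = 4.50e-04). Over the 12 libraries, log2 CPM of Ddit3 went with that of Trib3 (Pearson r = 0.91) and Asns (r = 0.86), as a description of libraries that share group and depth.

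Chac1 encodes an enzyme that degrades glutathione and is another ATF4 target (chromosome 2, 119351229 to 119354381, plus strand). It was at 5.16, 1.57, 6.57 and 6.19 CPM in WT chow, 10.5, 4.54 and 3.63 in WT CDAHFD, 2.96 and 4.37 in KO chow, and 4.10, 5.03 and 1.19 in KO CDAHFD. All groups overlapped, and the lowest library had 50 counts. The log2 fold change from WT chow was -0.40 in KO chow (95% interval -1.73 to 0.92), 0.36 in WT CDAHFD (-0.77 to 1.49) and -0.50 in KO CDAHFD (-1.67 to 0.66), with adjusted p = 0.635, 0.592 and 0.461. The intervals in KO chow and KO CDAHFD reach below a log2 fold change of -1 and that in WT CDAHFD above 1, so changes of that size are not excluded. Chac1 and Asns both hold a CARE match, and differ in these values.

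Atf4 itself (chromosome 15, 80255184 to 80257541, plus strand) had 146, 133, 150.1 and 149.7 CPM in WT chow and 108, 124 and 117 in WT CDAHFD. KO chow had 185 and 162 CPM, above WT chow, and KO CDAHFD 142, 179 and 98.9, on both sides of it. The log2 fold changes from WT chow were 0.26 ± 0.18, -0.31 ± 0.16 and -0.05 ± 0.16 for KO chow, then WT CDAHFD, then KO CDAHFD (adjusted p = 0.274, 0.119 and 0.813). KO chow was above WT CDAHFD in every library by 0.57 ± 0.19, which did not pass the test (adjusted p = 0.0877) but did so with the clock gene score as a covariate (0.59, adjusted p = 0.0404). Atf4 had the smallest spread of the 10 genes in WT chow relative to its mean, 7.93 CPM (SD) around 145, at counts of 3263 to 4500 per library.

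**Figure D2:**
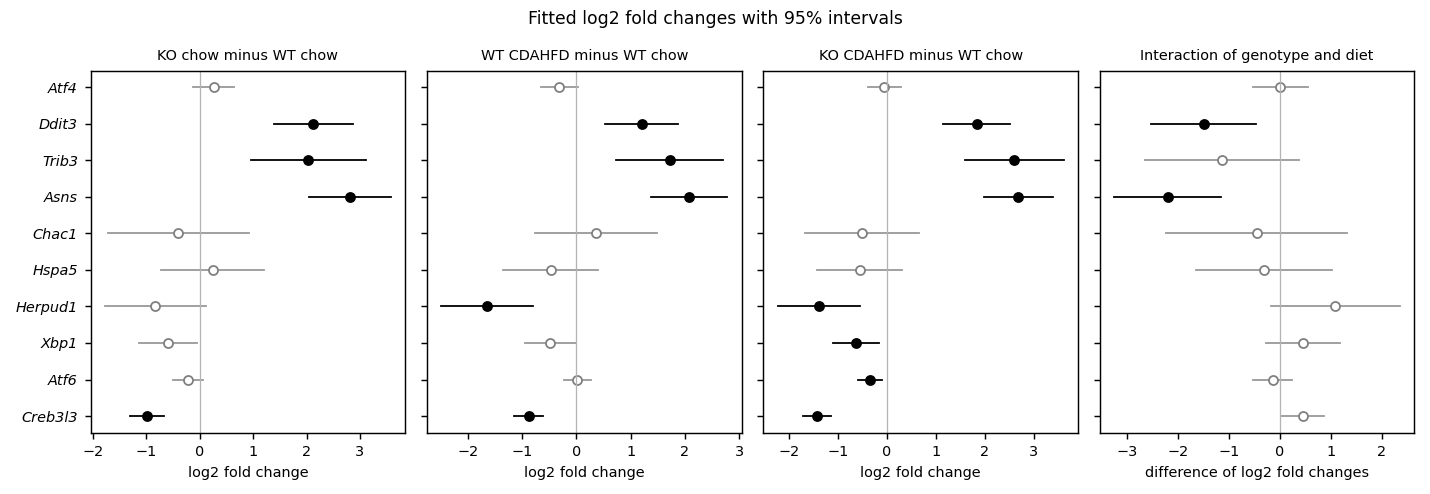
Fitted log2 fold changes (horizontal axis) of the 10 genes for the 3 groups against WT chow, and the interaction of genotype and diet as the difference of log2 fold changes, with 95% intervals as lines. Filled points passed an adjusted p of 0.05, and the fits share the 4 WT chow libraries. Asns, Ddit3 and Trib3 lie to the right and Creb3l3 to the left in the first 3 panels, and Asns and Ddit3 lie to the left in the interaction, at -2.20 and -1.50.

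Among 30 other genes listed as ATF4 and CHOP targets, the KO chow livers had 17 higher and 2 lower than WT chow, WT CDAHFD had 14 and 3, and KO CDAHFD had 17 and 3. The median log2 fold change of the list was 0.90, 0.43 and 0.63 in the same order, against 0.0022, -0.05 and -0.04 over all genes tested. Of all genes 22.0%, 26.1% and 26.9% were higher and 17.0%, 25.0% and 25.4% lower in these comparisons. Scaled by library size alone, 24 of the list were higher in KO chow and 22 in WT CDAHFD. Slc7a11, the cystine transporter subunit, had 0 to 2 counts in each WT chow library, 876 to 1273 per KO chow library, 362 to 622 per WT CDAHFD library and 246 to 383 per KO CDAHFD library. Phgdh, the first enzyme of serine synthesis, rose by 4.97 ± 0.29 in KO chow (log2, adjusted p = 1.36e-07), and the stress-induced factor Atf3 rose by 5.23 ± 0.33 in WT CDAHFD and 5.13 ± 0.33 in KO CDAHFD (adjusted p = 1.16e-07 and 1.15e-07). Shmt2, the mitochondrial serine hydroxymethyltransferase, was lower in the 3 groups, by -0.89, -0.83 and -0.97 for KO chow, then WT CDAHFD, then KO CDAHFD (adjusted p = 1.95e-04, 6.22e-05 and 1.56e-05). Cth, which makes cysteine from cystathionine, was lower in WT CDAHFD (-1.20, adjusted p = 4.96e-05) and KO CDAHFD (-0.94, adjusted p = 3.18e-04), and the alanyl-tRNA synthetase Aars in KO chow (-0.43, adjusted p = 0.0432). Values are given for the genes of largest change in each comparison, and Phgdh, Atf3 and Slc7a11 were higher and Aars lower in each of the 3 groups. The count of lower genes in KO chow was 1 in 9 of the 12 fits that left out a library. The library mean of the 30 genes relative to WT chow (log2) was 1.54 and 1.86 for the KO chow libraries, 1.11 to 1.29 for WT CDAHFD and 0.98 to 1.58 for KO CDAHFD, against -0.18 to 0.21 in the WT chow libraries.

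**Figure D3:**
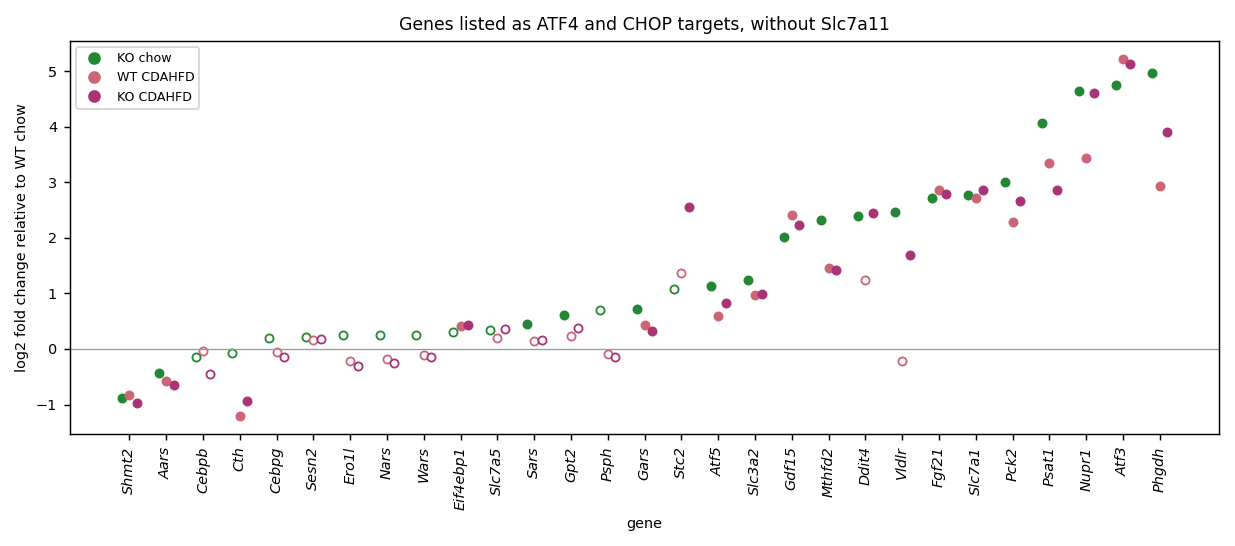
Log2 fold changes from WT chow (vertical axis) of 29 of the 30 genes listed as ATF4 and CHOP targets, ordered by their value in KO chow, with filled points where the adjusted p was under 0.05. Slc7a11 was not drawn because it had 0 to 2 counts in each WT chow library. Most filled points lie above 0 in the 3 groups, and Shmt2 and Aars lie below it in all 3.

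Of the proteins that sense stress or act on eIF2, 11 genes were listed. Eif2ak3, which encodes PERK, was higher in the 3 groups, with log2 fold changes of 1.10 ± 0.14 for WT CDAHFD, 1.01 ± 0.15 for KO chow and 0.75 ± 0.14 for KO CDAHFD (adjusted p = 2.39e-05, 1.996e-04 and 4.88e-04), from a mean of 21.5 CPM in WT chow to 46.1, 43.2 and 36.3. Ern1, which encodes IRE1, was lower in KO chow (-1.04 ± 0.26, adjusted p = 0.00618) and KO CDAHFD (-0.92 ± 0.22, adjusted p = 0.00358). Ppp1r15b, a subunit of the phosphatase that removes the phosphate from eIF2, was lower by -0.68, -0.68 and -0.63 (adjusted p = 0.00169, 3.95e-04 and 6.78e-04). Of the 11, KO chow had 3 higher and 4 lower, WT CDAHFD 2 and 2, and KO CDAHFD 1 and 4. Of all genes 22.0%, 26.1% and 26.9% were higher and 17.0%, 25.0% and 25.4% lower. Scaled by library size alone the counts were 3 and 1, 7 and 0, and 5 and 0, so that they depend on the scaling. Without KO chow library 1 the KO chow count was 2 lower, without WT CDAHFD library 1 or 2 that group had 1 higher, and without WT chow library 4 KO CDAHFD had 2 higher. The other named calls were Mbtps2, a protease that cuts ATF6, higher in KO chow (0.43) and WT CDAHFD (0.39), and the haem-regulated eIF2 kinase Eif2ak1, lower in WT CDAHFD (-0.42), with adjusted p = 0.0288, 0.0203 and 0.00172. Eif2ak1 was lower in both KO groups as well, and so was Mbtps1, which is listed beside Mbtps2. Within WT chow, 6 of the 11 genes were lower in both libraries of positive score than in both of negative score (23.2% of all genes were). Higher in both were 2 of the 11 (21.6% of all genes).

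Hspa5 encodes BiP, the main chaperone of the ER and the classical target of ATF6 (chromosome 2, 34771970 to 34777547, plus strand). It had 2322, 1500.2, 622 and 845 CPM in WT chow and 873, 1071 and 906 in WT CDAHFD. KO chow had 2057 and 1062 CPM, and KO CDAHFD 990.3, 1169 and 539. In each of these groups except WT CDAHFD, whose scores lie close together, the libraries with a negative clock gene score had the lowest Hspa5. Over the 12 libraries, log2 CPM of Hspa5 went with the score with r = 0.83 (Spearman's rho = 0.89), and the other 9 genes had r between -0.45 and 0.38, given as a description. Within WT chow, 6 of the 10 genes were lower in both libraries of positive score than in both of negative score, against 23.2% of all genes. These were Atf4, Ddit3, Chac1, Herpud1, Atf6 and Creb3l3. Only Hspa5 was higher in both, against 21.6% of all genes. Hspa5 did not pass the test against WT chow in any group, with 0.24 ± 0.45 for KO chow, -0.48 ± 0.40 for WT CDAHFD and -0.56 ± 0.40 for KO CDAHFD (adjusted p = 0.704, 0.345 and 0.269). With the score as a covariate it was lower in WT CDAHFD (-0.64, adjusted p = 0.00288) and KO CDAHFD (-0.37, adjusted p = 0.0464), and in the libraries with a score above 0 it was lower by -1.01 (adjusted p = 0.00187) and -0.82 (adjusted p = 0.0108). In that subset the WT chow libraries had higher scores (3.31 and 2.75) than those of WT CDAHFD (1.09 to 1.92) and KO CDAHFD (1.45 and 1.38). The subset thus does not remove the score, and the part of the score in these values was not tested. Without WT chow library 1, the highest, the values were 0.67 for KO chow, -0.040 for WT CDAHFD and -0.11 for KO CDAHFD, none of them called. In KO chow the value stayed without a call, at 0.13 (adjusted p = 0.538) with the covariate. Manf, another ER stress protein, was the gene most like Hspa5 among 10442 genes (r = 0.98 of log2 CPM over 12 libraries), followed by Spcs3 and Anp32e.

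The 15 other ER chaperones and folding enzymes had 0 higher genes in the 3 comparisons, at 22.0%, 26.1% and 26.9% of all genes. In KO chow 2 were lower, in WT CDAHFD 4 and in KO CDAHFD 6, with median log2 fold changes of -0.40, -0.60 and -0.58. Of all genes 17.0%, 25.0% and 25.4% were lower, and the counts of 2 and 4 lie near these shares. Ppib, a prolyl isomerase of the ER, and Sil1, an exchange factor for BiP, were lower in KO chow (-0.63 and -0.50, adjusted p = 0.00558 and 0.00849). The BiP cochaperones Dnajb11 and Dnajc3 were lower in WT CDAHFD (-0.82 and -0.71, adjusted p = 0.0173 and 0.00361) and in KO CDAHFD (-0.86 and -0.97, adjusted p = 0.0130 and 4.29e-04). Ppib and Sil1 were lower in both CDAHFD groups too. Within WT chow, 12 of the 15 genes were higher in both libraries of positive score than in both of negative score, as were 21.6% of all genes tested. With the score as a covariate 6, 14 and 13 of the 15 were lower, in the same order of groups, and in the libraries with a score above 0 the counts were 14 in WT CDAHFD and 14 in KO CDAHFD. The WT chow libraries of that subset had higher scores than its CDAHFD libraries, so the subset does not remove the score. Leaving out single libraries moved the count in KO CDAHFD to 10 without WT chow library 3 and to 3 without KO CDAHFD library 3, that in WT CDAHFD to 7 without WT chow library 3, and that in KO chow to 1 without KO chow library 2. Scaling by library size alone, which shifts the median of all genes to 0.40, 0.51 and 0.57, left 0 lower genes and 1 higher gene in each comparison.

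**Figure D4:**
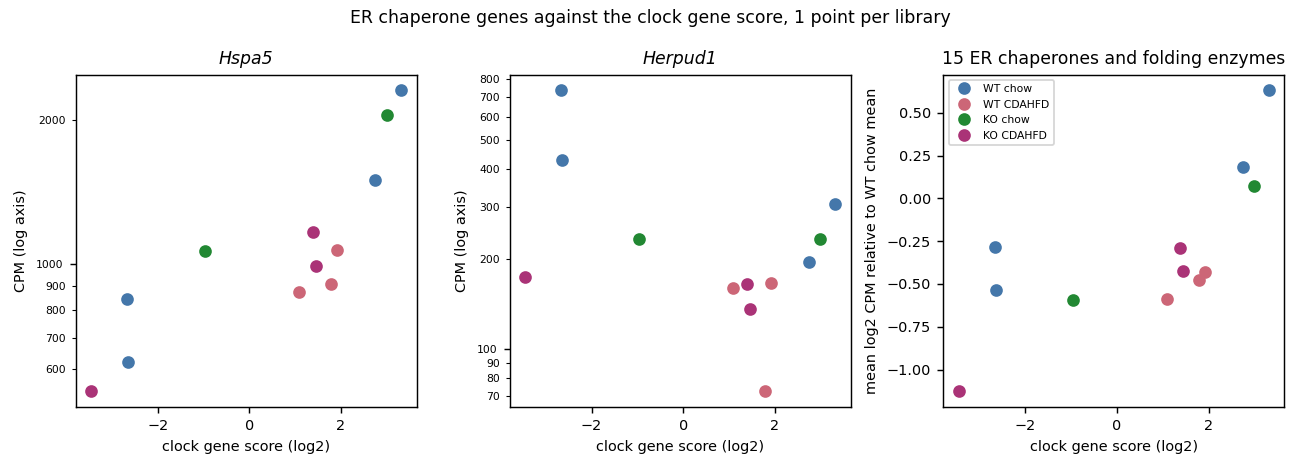
CPM (log axis) of Hspa5 and Herpud1, and the mean log2 CPM of 15 ER chaperones and folding enzymes relative to the WT chow mean, against the clock gene score (log2) with 1 point per library. Hspa5 and the chaperone mean are highest in the libraries with the highest scores and lowest in the KO CDAHFD library at -3.45, and Herpud1 is highest in the 2 WT chow libraries near -2.65.

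Herpud1 encodes a membrane protein of ER-associated degradation (chromosome 8, 94386438 to 94395377, plus strand). Its values were 306, 196, 429.8 and 739 CPM in WT chow and 161, 166 and 72.4 in WT CDAHFD. KO chow had 234 CPM in both libraries, and KO CDAHFD 136, 166 and 174. WT chow libraries 3 and 4, with negative scores, were the highest of all 12, and both CDAHFD groups lay below all of WT chow. Herpud1 fell 3.14-fold in WT CDAHFD (-1.65 ± 0.39, adjusted p = 0.00347) and 2.63-fold in KO CDAHFD (-1.39 ± 0.39, adjusted p = 0.00863). In KO chow it was at -0.83 ± 0.44 and did not pass the test (adjusted p = 0.151), although it did without WT chow library 2 (-1.05, adjusted p = 0.0477). Without WT chow library 4 it was at -0.40. From the libraries with a score above 0 the values were -0.91 for WT CDAHFD (adjusted p = 0.0407) and -0.73 for KO CDAHFD (adjusted p = 0.128). For KO chow, which is 1 library there, the value was -0.10. The call in KO CDAHFD was lost, and all 3 values were smaller in size.

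Xbp1 (chromosome 11, 5520659 to 5525893, plus strand) had 549.5, 314, 345 and 327 CPM in WT chow, 301, 222 and 300.5 in WT CDAHFD, 288 and 219 in KO chow, and 255, 300.6 and 189 in KO CDAHFD. All libraries of the other groups were below all of WT chow, where library 1 lay far above the other 3. Xbp1 was lower in KO CDAHFD (-0.63 ± 0.22, adjusted p = 0.0288) and did not pass the test in KO chow (-0.60 ± 0.25, adjusted p = 0.0776) or WT CDAHFD (-0.48 ± 0.22, adjusted p = 0.0827). Without WT chow library 1 the values were -0.38 in KO CDAHFD, -0.36 in KO chow and -0.24 in WT CDAHFD, and the call in KO CDAHFD was lost (adjusted p = 0.0812), as it was without KO CDAHFD library 1 (adjusted p = 0.0648) or 3 (adjusted p = 0.122). With the clock gene score as a covariate KO chow (-0.67, adjusted p = 0.0176) and WT CDAHFD (-0.58, adjusted p = 0.0144) passed too. From the libraries with a score above 0 WT CDAHFD passed (-0.65, adjusted p = 0.0387) and KO CDAHFD did not (-0.64, adjusted p = 0.0676).

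The 20 genes listed as XBP1 targets in secretion and ER-associated degradation included 0 higher genes in the 3 comparisons, where 22.0%, 26.1% and 26.9% of all genes were higher. Of these 20 genes, 5 were lower for KO chow and 7 for each CDAHFD group, where 17.0%, 25.0% and 25.4% of all genes were lower. Scaled by library size alone, 7, 7 and 10 of them were higher and 1, 2 and 2 lower, so that the direction of the list depends on the scaling. With every gene with a count, or without KO CDAHFD library 3, 2 were higher in KO chow, and without WT chow library 1 there was 1 higher in KO chow and 1 in WT CDAHFD. Derl3, a channel component of ER-associated degradation, was lower in the 3 groups, by -2.04 ± 0.59, -2.08 ± 0.50 and -2.07 ± 0.50 (adjusted p = 0.0152, 0.00392 and 0.00391), from a mean of 14.5 CPM in WT chow to 3.51, 3.43 and 3.45. Its relative Derl2 was lower in KO chow (-0.56, adjusted p = 0.00785) and WT CDAHFD (-0.96, adjusted p = 4.34e-05), and the ubiquitin ligase Syvn1 in KO CDAHFD (-1.07, adjusted p = 0.0306, with libraries that overlapped WT chow). Derl2 was lower in KO CDAHFD too. Within WT chow, 11 of the 20 genes were higher in both libraries of positive score than in both of negative score (21.6% of all genes were). Lower in both were 4 of the 20 (23.2% of all genes). With the score as a covariate, 6 of the 20 were lower and 1 was higher in KO chow, and 10 were lower and 0 higher in WT CDAHFD. The count of lower genes in KO chow was 3 without WT chow library 4. The libraries with a score above 0, or a fit without either KO chow library, leave 1 KO chow library, too few to set this count. The median of the list had a sign opposite to these calls in KO chow, at 0.12, and was -0.20 and -0.22 in the CDAHFD groups.

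Atf6, the membrane-bound sensor and transcription factor (chromosome 1, 170704674 to 170867771, minus strand), was nearly level across groups. It had 106, 107, 125 and 129.5 CPM in WT chow, 113, 123 and 119 in WT CDAHFD, 86.7 and 114 in KO chow, and 95.5, 92.2 and 88.6 in KO CDAHFD. The KO CDAHFD libraries were below all WT libraries on either diet. Atf6 was lower in KO CDAHFD than in WT chow (-0.34 ± 0.12, adjusted p = 0.0241), but this call was lost without WT chow library 3 or 4 or KO CDAHFD library 2 or 3 (adjusted p = 0.0720, 0.0825, 0.0563 and 0.0724). The change from WT chow was -0.22 ± 0.13 in KO chow and 0.02 ± 0.11 in WT CDAHFD (adjusted p = 0.211 and 0.917). Scaled by library size alone, Atf6 in KO CDAHFD was 0.27 above WT chow (adjusted p = 0.0407), where the median of all genes was at 0.57.

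Creb3l3 encodes CREBH, a liver transcription factor held in the ER membrane that drives acute phase and lipid genes and works together with PPARα (chromosome 10, 81084324 to 81098874, minus strand). It had 451, 427, 581 and 519 CPM in WT chow and 283, 259 and 262 in WT CDAHFD. KO chow had 268 and 228 CPM, and KO CDAHFD 179.5, 169 and 202. WT chow lay above all other libraries, and KO CDAHFD below all others. Creb3l3 fell 1.99-fold in KO chow (-0.996 ± 0.15, adjusted p = 1.78e-04), 1.85-fold in WT CDAHFD (-0.88 ± 0.13, adjusted p = 8.40e-05) and 2.696-fold in KO CDAHFD (-1.43 ± 0.13, adjusted p = 1.55e-06). These 3 calls held in all 12 fits that left out a library.

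The Creb3l3 levels were also set against the hepatocyte markers, a ratio chosen after the values were seen. Creb3l3 CPM per 1000 CPM of the 8 hepatocyte markers was 3.87 to 5.41 in WT chow, 4.51 to 5.33 in WT CDAHFD, 2.44 to 3.24 in KO chow and 2.67 to 4.28 in KO CDAHFD. The WT CDAHFD libraries lay within the range of WT chow, and those of KO chow below it. KO CDAHFD library 3, at 4.28, lay within the WT chow range and the other 2 below it. The gene most like Creb3l3 was Acad11, an acyl-CoA dehydrogenase (r = 0.99 over 12 libraries), followed by Chpt1 and Nudt12.

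Of 8 genes listed as CREB3L3 targets in liver, KO chow had 4 higher and 2 lower, WT CDAHFD 3 and 4, and KO CDAHFD 4 and 3. The median log2 fold change of the list was 0.69, -0.31 and 0.15, and of all genes 22.0%, 26.1% and 26.9% were higher and 17.0%, 25.0% and 25.4% lower. Without WT chow library 4 or KO chow library 1, or scaled by library size alone, 1 was lower in KO chow. Apoa4, an apolipoprotein of triglyceride-rich particles, rose by 4.34 ± 0.16, 3.41 ± 0.14 and 3.46 ± 0.14 in the 3 groups (log2, adjusted p = 4.70e-09, 7.54e-09 and 6.28e-09). The hormone Fgf21, which is in the list of ATF4 targets as well, rose by 2.73 ± 0.63 on chow and 2.79 ± 0.59 on CDAHFD in KO liver (adjusted p = 0.00433 and 0.00156). The lipid droplet protein gene Cidec rose by 3.03 ± 0.30 in WT CDAHFD (adjusted p = 3.80e-06). The acute phase gene Crp was lower in KO chow (-1.20, adjusted p = 1.55e-04) and WT CDAHFD (-1.16, adjusted p = 3.61e-05), the hepcidin gene Hamp in WT CDAHFD (-1.38, adjusted p = 4.25e-04) and KO CDAHFD (-1.32, adjusted p = 5.45e-04), and Apoa5, an activator of lipoprotein lipase, in KO chow (-0.70, adjusted p = 0.0237) and KO CDAHFD (-1.50, adjusted p = 3.99e-05). Fgf21 and Cidec were higher, and Crp and Apoa5 lower, in the remaining groups as well.

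Genotype under CDAHFD was compared next, with KO CDAHFD against WT CDAHFD. By edgeR 0 of the 10 genes passed the test (0.357% of all genes did), 2 had an unadjusted p under 0.05 (8.77% of all genes), and DESeq2 called 1. Among all genes, 0.0864% were higher and 0.271% lower. The libraries of 3 of the 10 did not overlap, Atf6, Asns and Creb3l3, against 20.8% of all genes. The gene nearest to a call was Creb3l3, lower in every KO CDAHFD library by -0.55 ± 0.13 (adjusted p = 0.149). Its adjusted p was 0.0144 by DESeq2, 0.0297 with the clock gene score as a covariate and 0.0310 from the libraries with a score above 0. Atf6 was lower in every library by -0.36 ± 0.12 (95% interval -0.63 to -0.09, adjusted p = 0.380). Ddit3, Trib3 and Asns were at 0.63, 0.89 and 0.62, with intervals from -0.08 to 1.34, -0.15 to 1.94 and -0.10 to 1.33 that hold both no change and more than a doubling (adjusted p = 0.634, 0.655 and 0.649). None of the genes in the 5 pathway lists passed the test in this comparison.

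Diet in KO liver (KO CDAHFD against KO chow) and genotype on chow against diet in WT liver (KO chow against WT CDAHFD) gave 0 of 10 calls each by edgeR, where 6.19% (3.76% higher, 2.44% lower) and 6.12% (2.71% higher, 3.42% lower) of all genes passed. Before adjustment 1 of the 10 had p under 0.05 in the first comparison (23.1% of all genes) and 2 in the second (24.0%). The libraries did not overlap for 2 of the 10 in the first (39.1% of all genes) and 4 in the second (48.6%). DESeq2 called 0 in each. Creb3l3 was at -0.43 ± 0.15 in KO CDAHFD against KO chow (adjusted p = 0.102), lower in all KO CDAHFD libraries, and passed with the clock gene score as a covariate (-0.49, adjusted p = 0.0319). The log2 fold changes of the other genes in this comparison lay between -0.79 for Hspa5 and 0.58 for Trib3. In KO chow against WT CDAHFD, Ddit3 was at 0.92 ± 0.36 (adjusted p = 0.142) and Asns at 0.74 ± 0.36 (adjusted p = 0.237), with KO chow above WT CDAHFD in every library for both, and Creb3l3 was at -0.11 ± 0.15 (adjusted p = 0.689). With the clock gene score as a covariate, 2 genes passed, Atf4 and Hspa5 (0.78, adjusted p = 0.0132), where 14.3% of all genes did. From the libraries with a score above 0 KO chow is 1 library, so only sizes are given. They were 0.67 for Atf4, 1.14 for Ddit3, 1.12 for Hspa5, -0.45 for Atf6 and 0.9997 for Asns.

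The interaction of genotype and diet, the log2 fold change of KO against WT under CDAHFD minus that on chow, passed for 2 of the 10 genes, both lower (23.1% of all genes passed, 8.63% higher and 14.5% lower). Before adjustment 3 of the 10 had p under 0.05, against 34.8% of all genes. Asns was at -2.20 ± 0.49 (adjusted p = 0.00574) and Ddit3 at -1.50 ± 0.48 (adjusted p = 0.0378). Asns thus differed between genotypes by 2.82 on chow and by 0.62 on CDAHFD, and Ddit3 by 2.13 and 0.63. The Asns call held in all 12 fits that left out a library, and the Ddit3 call in 6 of them. It was lost without WT chow library 2 (adjusted p = 0.0561) or 3 (0.0512), WT CDAHFD library 1 (0.0532) or 2 (0.1004), KO chow library 1 (0.143) or KO CDAHFD library 1 (0.0523), and with the clock gene score as a covariate (-1.30, adjusted p = 0.0580). Trib3 was at -1.14 ± 0.70 (adjusted p = 0.276), and the others lay between -0.46 for Chac1 and 1.09 for Herpud1, with none passing. Of the 30 genes listed as ATF4 and CHOP targets, 12 were lower and 1 was higher in the interaction.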

How the data were processed

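Poly-A selected, non-directional liver libraries were sequenced and, according to the study's methods and the submitters' processing notes, checked with FastQC 0.11.5 and aligned to GRCm38 with STAR 2.7.3a. The authors deposited read counts per Ensembl gene without normalization. The counting program and annotation release are not given in the sources used here, and the study used DESeq2 for its own tests. Groups came from the sample titles. The study's methods give 3 mice per group, whereas the libraries number 4, 3, 2 and 3.

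Symbols and positions came from GENCODE M21 (94.08% of identifiers matched). In R 4.3.3, edgeR 4.0.16 kept 17358 genes (filterByExpr), scaled library sizes with TMM (factors 0.73 to 0.83 in WT chow, 1.03 to 1.26 elsewhere) and fitted 1 quasi-likelihood model with 4 group means over 12 libraries (glmQLFit with the earlier defaults, glmQLFTest). Adjusted p are Benjamini-Hochberg over all genes tested, called at 0.05, and the SE is the size of the log2 fold change divided by the square root of F. On simulated data with 200 changed genes, 89.5% were recovered for KO chow against WT chow (79% of 2-fold changes, 2.72% of calls false, 16897 genes), 95.5% for WT CDAHFD (91%, 6.83%, 16905 genes) and 97% for KO CDAHFD (94%, 3%, 16878 genes). DESeq2 1.42.0 was an alternative. Tables and plots used Python 3.11.15, pandas 2.3.3 and matplotlib 3.10.9.

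The 10 genes and the gene lists were chosen with earlier results of these data known. Named list genes are up to 2 higher and 2 lower calls of largest log2 fold change per list and comparison with a mean of at least 50 counts. Genes most like a member had the highest r among genes of at least 5 CPM (prior count 2), and of each cell type list the most and least abundant genes could be named. Other alternatives were RLE scaling, library size only, every gene with a count, a replicate block, the clock gene score as a covariate, only the groups compared, and leaving out each library. The fit on libraries with a score above 0 and the list counts under each alternative were added after seeing the data. Precision is limited by 2 to 4 libraries per group, and intervals are 95%.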

Additional observations from a re-analysis of the deposited data

Results flagged for a closer look

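Xbp1 in WT chow had 1 library that stood far from the other 3. WT chow library 1 was at 549.5 CPM and the next at 345, and this gap is 0.866 of the whole range of the group and above Dixon's 95% value for 4 samples. Chance gives such a gap in about 1 in 20 groups. That rate holds for a group chosen beforehand, whereas Xbp1 was named here because of its gap. Hspa5 was also highest in that library, at 2322 CPM.

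For 2 of the 10 genes the effect of genotype differed between the diets by a test of the interaction. Asns was at -2.20 (adjusted p = 0.00574) and Ddit3 at -1.50 (adjusted p = 0.0378) in edgeR, where 23.1% of all genes passed this test, so 2 of 10 lies at or below the share of all genes. Between the KO and WT groups the log2 fold change on chow was 2.82 for Asns and 2.13 for Ddit3, and under CDAHFD it was 0.62 and 0.63 and did not pass the test (adjusted p = 0.649 and 0.634). KO chow has only 2 libraries, and the Ddit3 value without its library 1 was -1.26.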

How the results depend on the processing

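Each of the 2319 recomputed values changed 1 choice. The calls of Ddit3, Trib3, Asns and Creb3l3 against WT chow held in all 12 fits that left out a library, and those of Herpud1 in the CDAHFD groups did as well. Of the log2 fold changes of the 10 genes, 1270 kept direction and call, 62 changed sign, 34 gained a call and 24 lost one, and the cause was not tested unless named.

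The number of the 10 genes called in KO CDAHFD against WT CDAHFD went from 0 to 1 (Creb3l3) by DESeq2, with the clock gene score as a covariate and in the libraries with a score above 0. With the latter pair it went from 0 to 1 in KO CDAHFD against KO chow too. In KO chow against WT CDAHFD it went from 0 to 2 with every gene with a count, the covariate or the compared groups only, to 4 with a score above 0, and from 0 to 2 over single libraries left out (2 without KO CDAHFD library 3). The interaction had 1 call with the covariate or the replicate block, and 1 to 2 without single libraries.

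Scaling by library size alone moved the median of all genes to 0.40 for KO chow, 0.51 for WT CDAHFD and 0.57 for KO CDAHFD, and 86.0%, 88.6% and 89.9% of calls were then higher, against 56.4%, 51.0% and 51.4%. Under it the chaperones had 0 lower genes in the 3 groups, the XBP1 targets 1, 2 and 2, and the ATF4 targets 22 higher in WT CDAHFD. Signs turned against WT chow for Atf6 (0.19) and Chac1 (0.0039) in KO chow, for Atf4 (0.25), Hspa5 (0.060) and Xbp1 (0.060) in WT CDAHFD, and for Atf4 (0.55), Hspa5 (0.012), Atf6 (0.27) and Chac1 (0.089) in KO CDAHFD. They also turned in KO CDAHFD against KO chow for Xbp1 (0.16), Atf6 (0.081), Chac1 (0.085) and Asns (0.084), and in the interaction for Atf4 (-0.36). The same scaling ended the calls of Herpud1 (-0.76, adjusted p = 0.0878) and Xbp1 in KO CDAHFD, and gave calls to Atf4 in KO chow (0.66, adjusted p = 0.00456) and Atf6 in WT CDAHFD (0.58, adjusted p = 4.61e-04).

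With every gene with a count, 3 XBP1 targets were lower in KO chow and 7 chaperones in WT CDAHFD, and Atf4 turned in KO CDAHFD (0.0029) and the interaction (-0.042). With the covariate 6, 14 and 13 chaperones were lower in these groups, in the same order, and Hspa5 turned in KO CDAHFD against WT CDAHFD (0.28) and the interaction (0.14), and Xbp1 in KO CDAHFD against KO chow (0.062). In the libraries with a score above 0, where WT chow had the higher scores, 14 chaperones were lower in each CDAHFD group. There Atf4 (0.20) and Chac1 (0.46) turned in KO CDAHFD against WT chow, Hspa5 (0.18) and Xbp1 (0.014) in KO CDAHFD against WT CDAHFD, Atf6 (0.11) and Chac1 (0.62) against KO chow, Xbp1 (0.067) in KO chow against WT CDAHFD, and Hspa5 (0.075) in the interaction. With the compared groups only, 2 XBP1 targets were lower in KO chow and Atf4 in KO CDAHFD was at 0.0017. By RLE scaling and by DESeq2, Xbp1 was at 0.0011 in KO CDAHFD against KO chow and Atf4 at -0.0037 in the interaction.

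Leaving out single libraries gave 1 to 3 lower chaperones for KO chow, 3 to 7 for WT CDAHFD and 3 to 10 for KO CDAHFD, and 0 to 5 lower XBP1 targets in KO chow. Against WT chow, Hspa5 in KO chow ran from -0.30 to 0.67, Atf6 and Chac1 in WT CDAHFD from -0.0086 to 0.083 and from -0.25 to 0.63, and Atf4 in KO CDAHFD from -0.26 to 0.15. In KO CDAHFD against WT CDAHFD the ranges were -0.31 to 0.18 for Hspa5, -0.043 to 0.44 for Herpud1 and -0.31 to 0.015 for Xbp1. Against KO chow they were -0.22 to 0.19 for Xbp1, -0.39 to 0.21 for Asns, -0.29 to 0.083 for Atf6, -0.47 to 0.31 for Chac1 and -0.62 to 0.064 for Ddit3. Xbp1 in KO chow against WT CDAHFD ran from -0.33 to 0.065, and in the interaction Atf4 ran from -0.21 to 0.20, Chac1 from -0.83 to 0.15, Hspa5 from -0.74 to 0.23 and Atf6 from -0.34 to 0.064.

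Replicate numbers are shared by the groups, but the libraries with the same number did not deviate together (15 pairs, r from -0.24 to 0.27, 3 over 0.1), so they share only a number. With the number as a block, Hspa5 in KO chow was at -0.11, and Xbp1 and Asns in KO CDAHFD against KO chow at 0.054 and 0.038. Xbp1 in KO chow gained a call (-0.72, adjusted p = 0.0456), and Atf6 in KO CDAHFD (-0.29, adjusted p = 0.0859) and Ddit3 in the interaction (-1.45, adjusted p = 0.0504) lost theirs.

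Low counts limit Chac1, and 2 KO chow libraries limit each comparison with that group.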
